A study of Mus musculus with 30 samples.

Results

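The promoters of the genes for the proteins of the cytoplasmic ribosome were examined for CTCF and RAD21 peaks. The genes were all protein-coding autosomal genes in the RefSeq annotation of mm10 (GRCm38.p6) whose symbol is Rpl or Rps followed by a number, with an optional letter or l suffix, together with Rplp0, Rplp1, Rplp2 and Rpsa. This gave 78 of 20665 autosomal protein-coding genes, 48 of the large and 30 of the small subunit. A start site was listed for 58 of them (36 large, 22 small subunit), of 16457 genes with a listed start. The other 20 entered only the counts around gene bodies.

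Ribosomal protein genes are transcribed by RNA polymerase II in nearly every cell, at rates that keep the subunit proteins roughly balanced. Their promoters are typically compact, lack a TATA box and start in a tract of pyrimidines, the terminal oligopyrimidine (TOP) element through which translation of their mRNAs is tuned to growth signals. CTCF is a zinc-finger protein that binds a long GC-rich motif and stops the extrusion of chromatin loops. RAD21 is the kleisin subunit of cohesin, the ring complex that extrudes these loops. Cohesin is commonly found where CTCF stops it and, more weakly, at active promoters.

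Both proteins were mapped by ChIPmentation, an immunoprecipitation in which Tn5 transposase adds the adapters on the beads, in trunks of B6CBAF1 embryos at E10.5. The study compared wild-type (WT) embryos with homozygous alleles of CTCF binding sites (CBS) in the Hoxd cluster on chromosome 2, all obtained from crosses of heterozygotes. WT gave 3 CTCF and 4 RAD21 libraries. Among the mutants, Del(CBS1) gave 3 and 3, whereas Del(CBS1-2) gave 1 and 2. The alleles Del(CBS1-3), with Del(CBS1-4) and also Del(CBS1-5), gave 2 libraries per antibody each, and Del(CBS2) gave 1 of each, for 14 CTCF and 16 RAD21 libraries in all. The alleles are named for sites of the Hoxd cluster, so the 30 libraries show here mainly how each ribosomal protein promoter varied between libraries. The trunk is a mixture of tissues, and weaker binding in all cells cannot be told apart from binding in fewer cells. Peak lists hold no transcripts, so the tissue label could not be checked against marker genes.

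Each library had its own peak list, of 40011 to 88323 peaks for CTCF and 16676 to 48102 for RAD21. Read counts are not part of these lists, so sequencing depth was unknown and list length was the only measure of how much each library yielded. A gene was counted as having a peak when any base of a peak lay within 1 kb of one of its listed starts. The strength of a peak is given as the authors' fold enrichment over local background, which is a property of that peak in its own list and is used only to describe it. It is also given as a percentile, the rank of that fold among all peaks of the same library, with 100 the strongest.

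CTCF peaks were constant at some ribosomal protein promoters, variable at others and absent from the rest. A CTCF peak stood at 14 of the 58 starts in all 14 libraries (24.1%, against 14.4% of all 16457 genes with a start). At 19 starts it stood in some libraries (32.8% against 34.8%), and at 25 starts in none (43.1% against 50.8%). The constant group held Rpl5, Rpl10a, Rpl11, Rpl13a, Rpl26, Rpl27, Rpl34, Rpl35, Rpl37, Rpl38, Rplp0, Rps15, Rps19 and Rps26. Of these 11 encode large and 3 small subunit proteins, from 36 and 22 starts. RAD21 was far less constant. Rpl11 was the single member with a RAD21 peak in all 16 libraries (1.72% of starts, against 3.79% of all genes), and 21 starts had none (36.2% against 48.7%). Counting a promoter once if any library had a peak, 28 starts had both proteins, 5 had CTCF alone, 9 had RAD21 alone and 16 had neither. Of all 16457 genes 6712 had neither. Such counts lean on the longest lists: 5 members had CTCF, and 2 had RAD21, only in Del(CBS2) replicate 1, the longest list of each antibody.

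The promoters of 8 genes are printed because they show the range of binding: peaks at the start in every CTCF library with a CTCF word beside the summit (Rpl5, Rpl11), such peaks without one in the printed bases (Rpl10a, Rplp0, Rpl26, Rps15), and no peak of either protein (Rps16, which holds a CTCF word, and Rplp2, which holds an ETS word). Each runs 5′ to 3′ on the strand of the gene, from 180 bases before the start through the first 15 bases of the listed transcript, from RefSeq GRCm38.p6. Capitals mark the CTCF words AGGGGGC and AGGTGGC and the ETS word CCGGAAG on either strand. Other forms of the CTCF motif were not searched, so bases without capitals may still hold a CTCF site.
Rpl5, chr5:107900348-107900542 (+ strand): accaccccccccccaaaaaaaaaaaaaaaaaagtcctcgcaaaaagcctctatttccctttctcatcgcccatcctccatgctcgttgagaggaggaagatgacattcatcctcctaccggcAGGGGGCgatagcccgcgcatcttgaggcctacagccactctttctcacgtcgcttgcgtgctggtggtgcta
Rpl11, chr4:136053379-136053573 (- strand): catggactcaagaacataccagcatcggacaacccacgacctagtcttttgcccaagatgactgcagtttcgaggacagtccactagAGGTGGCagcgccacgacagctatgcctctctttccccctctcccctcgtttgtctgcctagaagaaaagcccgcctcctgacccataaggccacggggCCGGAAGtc
Rpl10a, chr17:28328291-28328485 (+ strand): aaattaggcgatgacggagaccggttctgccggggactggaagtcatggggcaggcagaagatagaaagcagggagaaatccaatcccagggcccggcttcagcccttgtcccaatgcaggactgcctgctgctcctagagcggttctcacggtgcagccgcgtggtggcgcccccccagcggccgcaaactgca
Rplp0, chr5:115559287-115559481 (+ strand): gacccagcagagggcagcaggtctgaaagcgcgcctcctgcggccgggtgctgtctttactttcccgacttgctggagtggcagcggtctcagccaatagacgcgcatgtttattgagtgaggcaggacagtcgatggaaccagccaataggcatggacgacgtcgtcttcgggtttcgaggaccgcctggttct
Rpl26, chr11:68901386-68901580 (+ strand): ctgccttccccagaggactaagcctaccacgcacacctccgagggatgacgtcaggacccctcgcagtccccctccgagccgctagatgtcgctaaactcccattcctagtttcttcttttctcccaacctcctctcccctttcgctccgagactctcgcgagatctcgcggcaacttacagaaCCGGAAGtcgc
Rps15, chr10:80292251-80292445 (+ strand): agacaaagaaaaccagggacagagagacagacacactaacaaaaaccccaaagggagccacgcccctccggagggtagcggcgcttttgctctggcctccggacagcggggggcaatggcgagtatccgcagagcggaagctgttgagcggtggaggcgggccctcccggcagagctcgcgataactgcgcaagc
Rps16, chr7:28350509-28350703 (+ strand): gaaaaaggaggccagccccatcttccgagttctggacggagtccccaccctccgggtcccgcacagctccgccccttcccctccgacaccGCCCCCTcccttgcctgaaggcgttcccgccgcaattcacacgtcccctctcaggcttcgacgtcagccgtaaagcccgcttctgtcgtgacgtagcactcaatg
Rplp2, chr7:141447471-141447665 (+ strand): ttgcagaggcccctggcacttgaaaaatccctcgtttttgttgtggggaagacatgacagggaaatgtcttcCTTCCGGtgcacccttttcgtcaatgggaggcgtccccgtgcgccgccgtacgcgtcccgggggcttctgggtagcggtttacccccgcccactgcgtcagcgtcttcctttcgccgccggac

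In Rpl5 the word AGGGGGC ran from −58 to −52, counted in bases from the start with negative values upstream, and the median CTCF summit lay at −19.5. In Rpl11 the word AGGTGGC ran from −93 to −87, with the median CTCF summit at −105. In the wider window of 250 bases before to 50 after the start, 2 more members of the constant group held a CTCF word, Rpl37 from −122 to −116 and Rpl10a from −219 to −213, both AGGGGGC. In Rps16 the word AGGGGGC, on the other strand, lay from −90 to −84 at a start without a CTCF peak in any library.

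Short words were searched, for CTCF CNAGGGGGC, AGGGGGC and AGGTGGC (the first contains the second), with CCGGAAG for ETS factors such as GABP, AAGATGGC for YY1, GGGCGG for SP1 and TATAAA for the TATA box, on both strands of the 300-base window. A CTCF word was found in 11 of 58 ribosomal protein windows (19.0%) and in 18.1% of all 16457. Among promoters with CTCF in every library it was found in 4 of 14 ribosomal protein windows (28.6%) and in 30.4% of 2374 windows overall. Among promoters with CTCF in none it was found in 3 of 25 (12%) and in 11.5% of 8358. The ETS word was in 23 of 58 windows (39.7%) against 12.3% of all, and it was held by 6 of the 14 with constant CTCF (42.9%, against 16.7% of the 2374 overall) and 8 of the 25 without CTCF (32%, against 7.93% of the 8358). The SP1 word was in 56.9% of windows against 47.3%, the YY1 word in 6.90% against 3.23%, and the TATA word in 6.90% against 13.5%. C and T made up a median of 65% of the 5 bases to each side of the start, against 50% over all genes. These shares are descriptions of letters in a fixed window, and a word is not a shown binding site. The CTCF words are short and the motif is long and variable, so a window without a word may still hold a CTCF site.

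The strongest CTCF promoters among the 58 starts were those of Rpl5 and Rpl11. Their proteins bind 5S rRNA together in the 5S ribonucleoprotein particle, which also restrains the p53 regulator MDM2 when ribosome assembly fails. At Rpl5 (start chr5:107900528, plus strand) the fold enrichment of CTCF was 22.7, 18.2 and 22.8 in WT replicates 1 to 3, and in the 11 mutant libraries it ran from 10.9 through a median of 18.4 to 25.7. The Rpl5 peak was near the top of each list, with a percentile of 97.1 at its lowest and a median of 99.8 over the 14 libraries. Del(CBS1-3) replicate 2, the shortest CTCF list, gave the lowest value, and WT and mutant libraries overlapped.

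At Rpl11 (start chr4:136053393, minus strand) the CTCF fold was 17.7, 14.97 and 16.6 in WT replicates 1 to 3 and 8.18 to 19.3 in the mutant libraries, with a mutant median of 15.1. The Rpl11 percentile ran from 81.9 to 99.3 with a median of 95.7. WT values lay inside the mutant range. Next in order of median CTCF percentile came Rpl37 (89.5), Rpl27 (86.5), Rpl10a (79.3), Rplp0 (79.3) and Rps19 (78.6). Rplp0 is the base of the stalk that recruits translation GTPases, and RPS19 is the gene most often mutated in Diamond-Blackfan anaemia. The lower members were Rpl13a (68.5), Rpl26 (65.7), Rpl34 (57.6), Rpl35 (55.1), Rps26 (52.2), Rps15 (50.6) and Rpl38 (50.3). Rpl38 is the member whose loss in the mouse changes the identity of vertebrae through translation of Hox mRNAs. Neighbours in this order overlapped in their ranges over libraries: Rps15 ran from 24.1 to 75.1 and Rpl38 from 38.6 to 68.9.

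**Figure D1:**
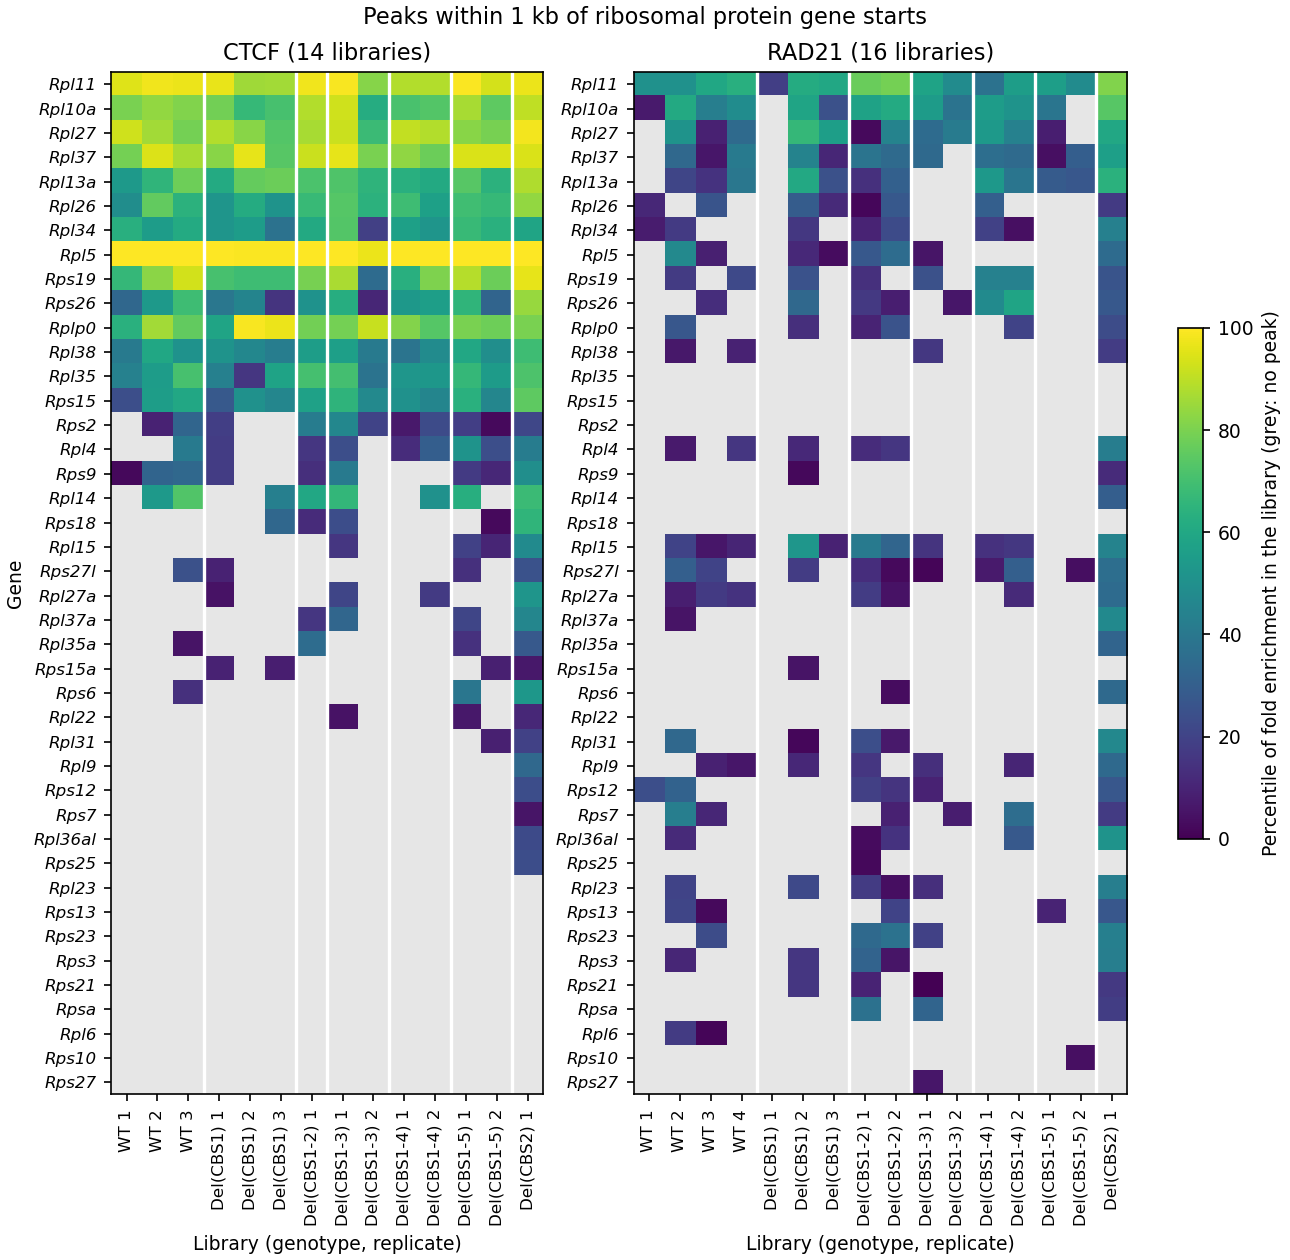
Peaks within 1 kb of the starts of the 42 ribosomal protein genes with a peak of either protein, 1 row per gene and 1 column per library, with white lines between genotypes. Colour gives the percentile of the fold enrichment within the library and grey means no peak. The 14 genes at the top have CTCF in every column, while RAD21 fills a whole row only for Rpl11.

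RAD21 at the same promoters ranked lower in its own, shorter lists and was called in some libraries and not in others. At Rpl11 the RAD21 fold was 6.76, 4.80, 6.17 and 8.23 in WT replicates 1 to 4, and in the 12 mutant libraries it ran from 4.29 through a median of 6.83 to 10.48. The Rpl11 percentile for RAD21 had a median of 57.0 over the 16 libraries, against 95.7 for CTCF at the same gene. Its lowest value, 18.7, came from Del(CBS1) replicate 1, where Rpl11 was the only member with a RAD21 peak, and WT and mutant values overlapped.

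Rpl10a, a protein near the E site of the large subunit, had RAD21 in 14 libraries, with folds of 3.99, 5.78, 4.64 and 6.25 in WT. Rpl27 and Rpl37 had it in 13, Rpl13a in 12, Rpl15 in 11 and Rps27l in 10. Rpl5, Rpl26, Rpl34, Rps19 and Rps26 had it in 8. Rplp0 had it in 6 and Rpl38 in 4. Rpl35 and Rps15 had none, although CTCF stood at both in every library. At Rps15 the CTCF fold was 5.24, 6.60 and 7.17 in WT and 4.75 to 11.1 in the mutant libraries, a modest peak with a median percentile of 50.6 and a smallest −log10 q of 13.7.

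Rpl5 combined one of the strongest promoter CTCF peaks with little RAD21. No RAD21 peak was called at the Rpl5 start in WT replicates 1 and 4, and the folds were 4.51 and 3.02 in WT replicates 2 and 3. In the 6 mutant libraries with a peak the fold ran from 2.90 to 4.31, and the median RAD21 percentile over the 8 libraries was 19.5. Among the 96 promoters of all genes with a median CTCF percentile of 99 or more, the median number of libraries with RAD21 was 15, and 7 of the 96 (7.29%), Rpl5 among them, had RAD21 in 8 or fewer.

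RAD21 was also less constant over the whole group with constant CTCF. Over the 14 ribosomal protein promoters with CTCF in every library, RAD21 was found in a median of 8 libraries, against 13 over the 2374 such promoters of all genes. It was in every library at 7.14% of them against 25.9%, in at least 8 libraries at 71.4% against 76.2%, and in none at 14.3% against 3.20%. Median CTCF percentiles of the 2 sets were close, 73.6 and 75.9. Of the 25 ribosomal protein promoters without CTCF, RAD21 was absent at 16 (64.0%), against 80.3% of 8358.

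**Figure D2:**
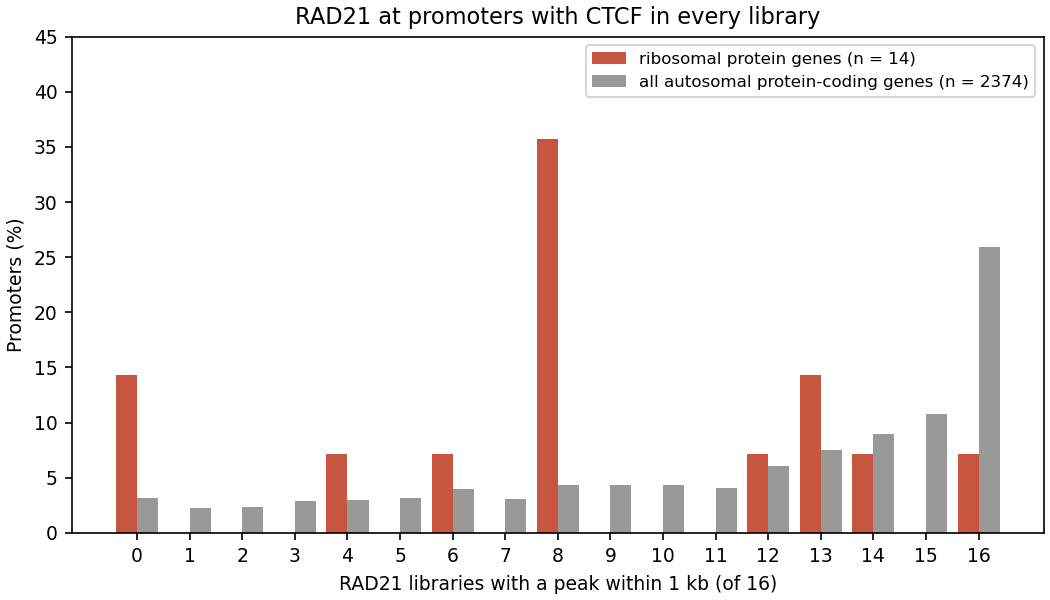
Share of promoters (vertical axis, percent) by the number of RAD21 libraries with a peak within 1 kb (horizontal axis, of 16), for promoters with CTCF in all 14 CTCF libraries. Ribosomal protein promoters (14) peak at 8 libraries and 1 of them reaches 16, where 25.9% of all 2374 such promoters lie.

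Within the constant group the CTCF summit lay upstream of the start at 13 of 14 genes (92.9%), against 69.4% of the 2374 promoters of all genes with CTCF in every library. It lay within 150 bases of the start at 8 (57.1% against 30.4%). The closest were Rpl5 (−19.5), Rpl10a (−20.5) and Rpl27 (−28). Rps15 (−96), Rpl26 (−101.5), Rpl11 (−105), Rpl38 (−121.5) and Rplp0 (−146.5) followed. Rpl34 was the exception, with its CTCF summit at a median of 814.5 bases downstream. Between libraries the summit ran from −39 to −2 at Rpl5 and from −136 to −79 at Rpl11.

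Where RAD21 accompanied CTCF their median summits lay close together at all but Rpl34 of the members compared. In 10 members with CTCF in every library and RAD21 in at least 8, the median summits of the proteins were a median of 16.5 bases apart, and 9 of the 10 were within 100 bases. The distance was 1.5 bases at Rpl13a, 3.5 at Rpl10a and 38.5 at Rpl5. It was not computed over all genes, so whether it is particular to these members was not tested. Medians also hide the spread over libraries. At Rpl27 RAD21 summits ran from −158 to 583, and CTCF summits from −76 to −7. At Rpl34 the medians were 800.5 bases apart, but the RAD21 summits fell in separate places. In 5 libraries they lay between −163 and 30 bases from the start. In the other 3 they lay at 783, 816 and 880 bases, within the range of the Rpl34 CTCF summits over libraries (748 to 1006).

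RAD21 peaks with little or no CTCF lay mostly downstream of the start. A set of 9 genes had RAD21 in at least 5 libraries and CTCF in at most 2: Rpl9, Rpl23, Rpl31, Rpl36al, Rps3, Rps7, Rps12, Rps13 and Rps23. Their median RAD21 summits lay downstream of the start at 7 of 9 (77.8%), against 55.0% of 1239 promoters of all genes with the same pattern. The furthest were Rps23 (428 bases), Rps3 (410) and Rps12 (269), and the upstream ones were Rpl36al (−80) and Rpl31 (−9). These peaks were weak. Median percentiles ran from 11.04 at Rpl9 to 34.1 at Rps23, and the ranges of summit position over libraries crossed the start at all of them but Rps3 and Rps23. No member had RAD21 in 12 or more libraries with CTCF in 2 or fewer.

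**Figure D3:**
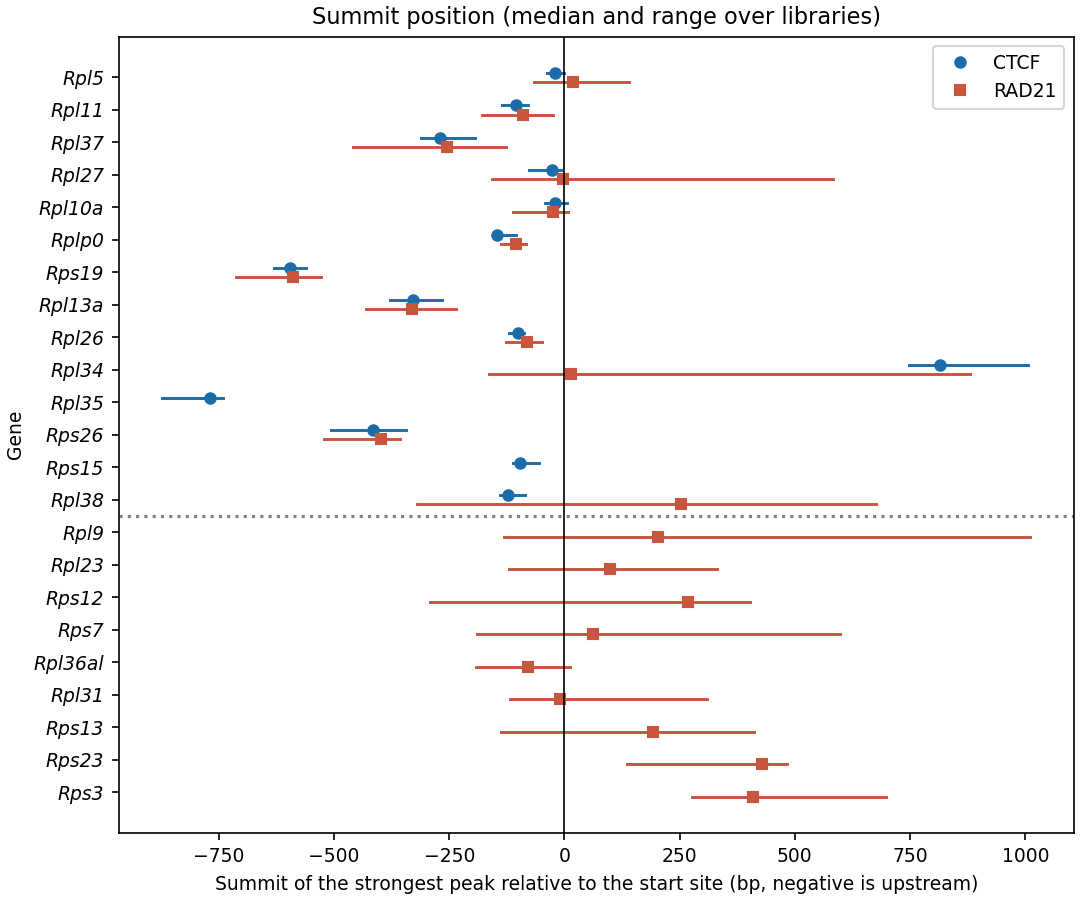
Position of the strongest peak's summit relative to the start (horizontal axis, bp; negative is upstream) for CTCF (circles) and RAD21 (squares), as the median with a line from the lowest to the highest library; proteins found in under 3 libraries are not drawn. Above the dotted line are the 14 genes with CTCF in every library, and below it the 9 with RAD21 in at least 5 and CTCF in at most 2 libraries, where RAD21 summits spread downstream.

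Between the constant and the empty promoters lay those whose detection varied. For CTCF these were led by Rps2 (11 of 14 libraries), Rpl4 and Rps9 (9 each) and Rpl14 (8), with median percentiles of 20.3, 24.0, 17.6 and 61.3. A further 5, Rpl9, Rpl36al, Rps7, Rps12 and Rps25, had CTCF only in Del(CBS2) replicate 1, which has the longest CTCF list, so that 30 members rather than 25 lacked CTCF without that library. For RAD21 the promoters nearest to detection in 8 of 16 libraries were the 5 named above and Rpl9 and Rpl27a (7 each). Rpl14 illustrates the limit of 1 kb: the nearest CTCF base lay at a median of 963.5 bases from its start, just inside, whereas at Rpl7a it lay at 1095 bases, just outside, and Rpl7a counts as without CTCF.

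The 16 promoters with neither protein were those of Rpl3l, Rpl7a, Rpl10l, Rpl12, Rpl13, Rpl18, Rpl19, Rpl24, Rpl28, Rpl32l, Rpl39l, Rpl41, Rplp2, Rps16, Rps24 and Rps28. They include Rplp2, the acidic stalk protein that binds Rplp0, whose own promoter had CTCF in every library. They also include Rpl24, the gene affected in the Belly spot and tail mouse, and Rpl41, the smallest ribosomal protein. Of the paralogs with an l suffix, Rpl10l and Rpl39l (germline forms) and Rpl3l (a striated muscle form) were in this set with Rpl32l. Rpl36al had CTCF in 1 and RAD21 in 5 libraries, and Rps27l, a p53 target, had CTCF in 4 and RAD21 in 10. Rpsa, also described as a laminin receptor, had RAD21 in 3 libraries and CTCF in none.

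Another protein-coding gene started within 1 kb of 9 of the 58 starts (15.5% against 10.3% of all genes). Among all genes with CTCF in every library 11.4% had such a neighbour, and among those with CTCF in none 5.80% had one. Of the 9 members, 0 belonged to the 14 with constant CTCF and 5 belonged to the 25 without CTCF: Rpl7a beside Med22, Rpl12 beside Lrsam1, Rpl18 beside Sphk2, Rps27 beside Rab13 and Rps28 beside Ndufa7.

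Around gene bodies the counts rose. With a margin of 5 kb on either side of the span, CTCF was present in every library at 51 of all 78 genes (65.4%, against 56.8% of 20665) and in none at 7. RAD21 was present in every library at 10 (12.8% against 30.9%) and in none at 4. Within single libraries RAD21 was not scarcer there in most lists. The median share of the 78 genes with a RAD21 peak in this window was 63.5%, against 58.6% over all genes. This share exceeded that of all genes in 10 of 16 libraries. Ribosomal protein genes are short, with a median span of 3.18 kb against 17.5 kb, so the margin made up most of each window and peaks of neighbouring genes could enter it. Of the 25 members without CTCF at the start, 17 had it within 5 kb of the body in every library. The strongest of these were Rpl3l (median percentile 99.1), Rps24 (98.1) and Rps28 (97.3). Rps24, Rps28 and Rpl19 also had RAD21 there in all 16 libraries, at median percentiles of 94.9, 89.7 and 80.7. Rpl3l had RAD21 there in 1 library and Rpl18 in 0.

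The 20 genes without a listed start followed the same pattern. CTCF lay within 5 kb of the body in every library at 14 of them, with the highest median percentiles beside Rps29 (99.2) and Rpl36 (96.8). No library had it near Rpl21. RAD21 was in every library beside Rpl23a, at a median percentile of 93.9. Rplp1, the partner of Rplp2 in the stalk, had CTCF in 5 libraries and RAD21 in 2. RAD21 was in no library near Rpl10l, Rpl18, Rpl32l and Rpl39l.

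Per library, the share of the 58 starts with CTCF ran from 24.1% to 56.9% with a median of 32.8% (14 to 33 genes), against 16.8% to 47.0% with a median of 24.7% over all genes. It was above the share of all genes in 14 of 14 libraries. In WT the shares were 25.9%, 29.3% and 36.2%. When every list was cut to the same number of top peaks, 40011, the median was 25.9% against 18.4%, and the share stayed above that of all genes in 14 of 14 libraries. With all peaks the excess over all genes was 2.00 to 4.23 percentage points in the 3 WT libraries and 6.18 to 10.2 in the 11 mutant libraries. With equal numbers of peaks it was 6.56 to 6.93 and 4.50 to 9.96, and the groups then overlapped.

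RAD21 gave no such excess within 1 kb of the 58 listed starts. Its share of starts ran from 1.72% to 55.2%, that is 1 to 32 genes, with a median of 22.4% against 22.0% over all genes (5.89% to 42.2%), and it exceeded that of all genes in 8 of 16 libraries. In WT it was 8.62%, 39.7%, 27.6% and 19.0% in replicates 1 to 4. The lowest share came from Del(CBS1) replicate 1, whose list of 18029 peaks was the second shortest, and the highest from Del(CBS2) replicate 1, whose list of 48102 was the longest. Within 500 bp the median was 21.6% against 18.1%, with the share above that of all genes in 12 of 16 libraries. Cut to 16676 top peaks in each list, the median was 3.45% against 5.70%, and the share exceeded that of all genes in 2 of 16 libraries. Where members had a RAD21 peak it ranked low in its list: the median percentile of members in a library ran from 11.2 to 37.9, against 27.6 to 39.9 over all genes. For CTCF it ran from 51.6 to 69.0, against 48.8 to 57.7.

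**Figure D4:**
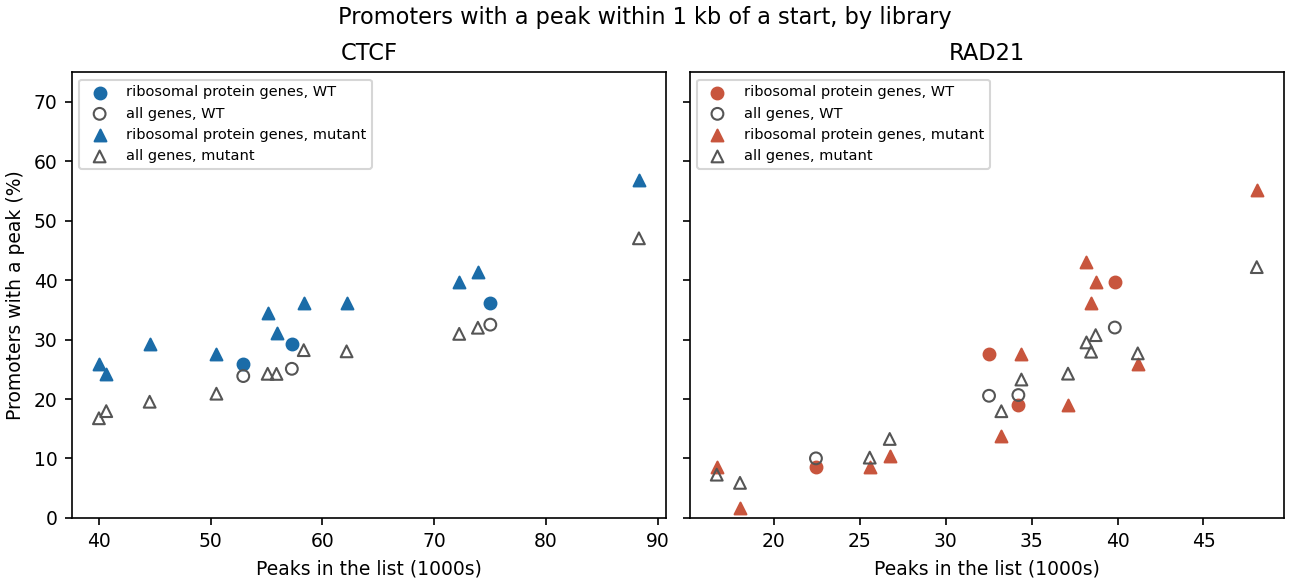
Share of promoters with a peak within 1 kb (vertical axis, percent) against the number of peaks in the list (horizontal axis, in units of 1000), 1 library per pair of points; filled symbols are the 58 ribosomal protein genes, open symbols all 16457 genes, circles WT and triangles mutant libraries. For CTCF the filled points lie above the open ones in 14 of 14 libraries, and for RAD21 in 8 of 16.

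Other genes of the protein synthesis machinery were counted in the same way. RAD21 stood at a median of 40.0% of the starts of translation factors and other TOP mRNA genes (15 with a start), 46.3% for ribosome biogenesis factors (27), 33.3% for the RNA polymerase I apparatus (12) and 36.2% for mitochondrial ribosomal proteins (69). The 22.4% of the cytoplasmic ribosomal protein genes was the lowest of these 5 lists and near the 22.0% of all genes. For CTCF the medians were 26.7%, 29.6%, 33.3% and 34.8%, against 32.8%. RAD21 and CTCF were together in every library at Eif3f, an initiation factor subunit, at Nob1, Nop14, Rrp1 and Rrp9 of ribosome assembly, at Taf1c of the polymerase I selectivity factor, and at Mrpl17, Mrpl39, Mrps14 and Mrps33. Of these, CTCF at Eif3f had a median percentile of 99.3 and RAD21 of 86.6. Among cytoplasmic ribosomal protein genes Rpl11 alone had both in every library. The TOP mRNA gene Eef1a1, the elongation factor that delivers aminoacyl-tRNA, had RAD21 in 11 libraries and CTCF in 1, beside 11 and 4 for Rpl15.

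No ribosomal protein promoter was called changed between WT and mutant libraries. Ranks of fold enrichment were compared with limma over all promoters with a peak in every library of the antibody (2374 for CTCF with 14 members, 624 for RAD21 with Rpl11), as normal scores of the rank within each library, with Benjamini-Hochberg adjustment over all of them. The labels number the replicates without stating how the embryos were divided among them, so p-values measure the spread between these libraries. For CTCF, 0 of 14 members were called in any contrast (Del(CBS1-5), Del(CBS1), or the 6 alleles together, each against WT), and 0% of the 2374 promoters were called in each. The median difference of the 14 members was 0.03, 0.06 and 0.11 normal-score units, against −0.01, 0.00 and 0.00 over all promoters, where positive means higher in the mutants. At an unadjusted limma p under 0.05 there were 0 members in each contrast, and 48, 131 and 48 promoters of all 2374. For RAD21 the calls over all 624 promoters were 2 (0.321%) for Del(CBS1-5), neither of them Rpl11 (4 without WT replicate 1, 11 and 0 without replicates 1 and 2 of that allele), while Del(CBS1) and the alleles together gave 0 (0%) each, with 33 and 27 promoters at an unadjusted limma p under 0.05. In the same order Rpl11 differed by 0.49 ± 0.43 (SE), 0.07 ± 0.38 and 0.25 ± 0.29 normal-score units, with limma adjusted p of 0.744, 0.982 and 0.980.

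Rplp0 had the largest CTCF difference of the family. Its percentiles were 63.4, 86.0 and 75.9 in WT and 58.2, 99.1 and 97.2 in Del(CBS1) replicates 1 to 3, so the groups overlapped through replicate 1. The limma difference was 1.05 ± 0.53 (SE) normal-score units (adjusted p = 0.815). Without Del(CBS1) replicate 1 it was 1.78 ± 0.31 and the adjusted limma p was 0.0141, while under the other 11 alternatives for this contrast the adjusted p ran from 0.581 to 0.999. The authors' fold at Rplp0 was 10.95, 11.5 and 10.3 in WT and 9.71, 13.2 and 12.5 in Del(CBS1), which also overlapped. In the other 8 mutant libraries the Rplp0 percentile lay between 73.8 and 91.6.

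**Figure D5:**
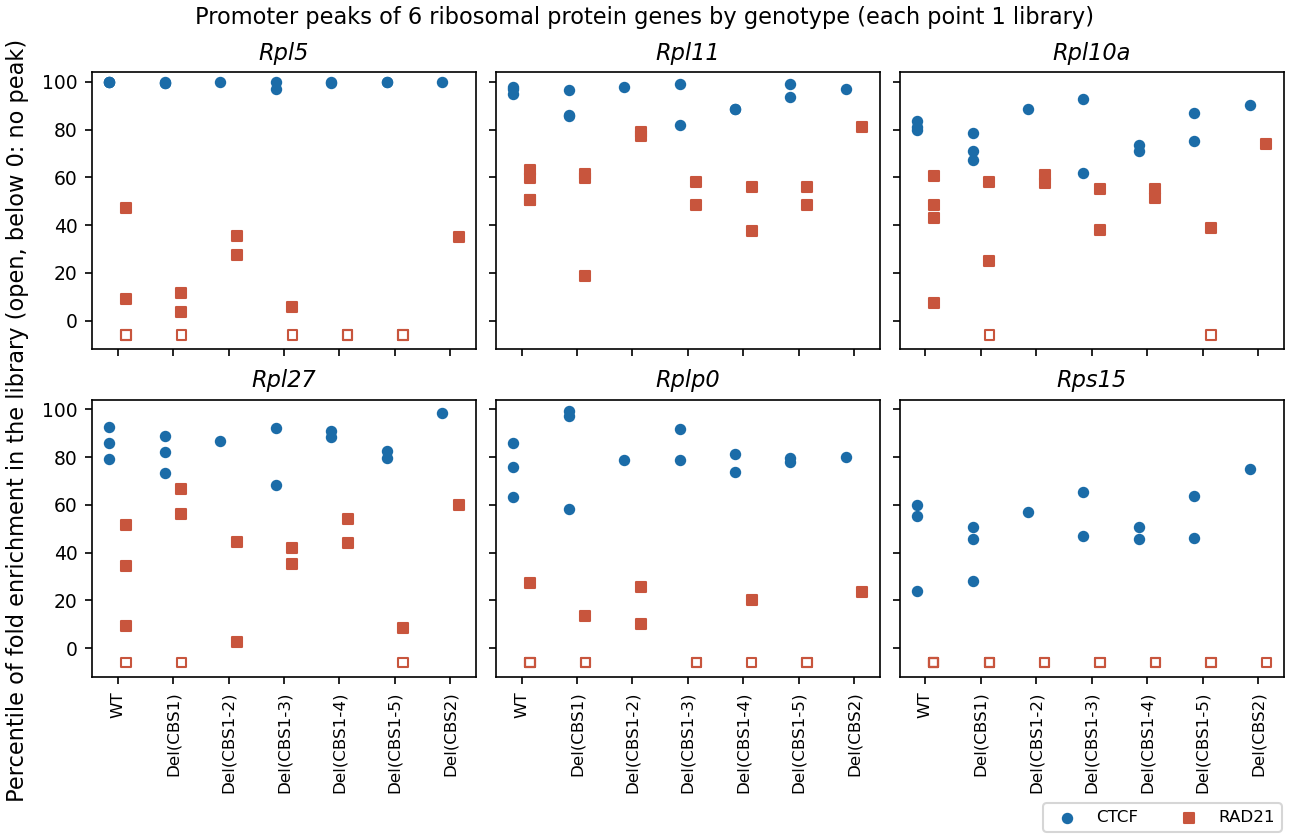
Percentile of fold enrichment (vertical axis) of CTCF (circles) and RAD21 (squares) at 6 promoters by genotype (horizontal axis), each point 1 library; open symbols below 0 are libraries without a peak. CTCF at Rpl5 stays above 97 in every library, 2 of the 3 Del(CBS1) libraries at Rplp0 lie at 97.2 and 99.1, and Rps15 has no RAD21 in any library.

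Promoters found in some libraries were compared by presence. By Fisher's exact test (2-sided) of mutant against WT libraries, adjusted over all genes found in at least 1 but not every library, 0 of 36 members were called for RAD21 (0% of 7824 promoters; 27 at an unadjusted p under 0.05) and 0 of 19 for CTCF (0% of 5725; 4 at an unadjusted p under 0.05). The member with the smallest p was Rpl6, with RAD21 in 2 of 4 WT and 0 of 12 mutant libraries (exact p = 0.05, adjusted p = 1). For CTCF the smallest were Rps18, in 0 of 3 WT and 5 of 11 mutant libraries, and Rps9, in 3 of 3 and 6 of 11 (exact p = 0.258, adjusted p = 1). The smallest exact p that the design allows is 0.000549 for RAD21 (4 WT and 12 mutant libraries) and 0.00275 for CTCF (3 and 11), so a loss or gain at 1 promoter alone could not pass the adjustment for either protein.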

How the data were processed

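The deposited files are narrowPeak lists on mm10, 1 per library, in which the authors called each library by itself. The submitters' processing notes name MACS2 2.1.1.20160309 as peak caller, and besides it bedtools 2.27.1, Picard 2.19.0, SAMtools 1.9, the aligner Bowtie2 2.3.5 and cutadapt 1.16; options are not given in the sources used here. The authors' columns are a display score (not used), the fold enrichment of a summit over local background (a ratio), and the −log10 p and −log10 q of the caller. The number of value columns left out for want of a sample was 0.

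Starts and sequences came from RefSeq GRCm38.p6, matched by gene identifier, and a gene's value was the largest fold of any peak with a base within 1000 bp of a listed start. Ranks of fold within a list were compared with limma 3.58.1 (R 4.3.3), using 1 coefficient per genotype, a variance trend and robust moderation; the threshold was an adjusted p of 0.05. A genotype's lone library was taken to vary as the replicated ones do. Presence was compared by Fisher's exact test in scipy 1.17.1. Python 3.11.15, numpy 2.4.6, pandas 2.3.3 and matplotlib 3.10.9 did the rest. Limma was tested on simulated data for Del(CBS1-5) against WT. Shifts of 1, 2, 3 and 4 normal-score units were planted together, 50 of each per antibody, with equal spread at every promoter. It recovered 60% of RAD21 shifts of 1 unit over 624 promoters (8 false calls) and 62% for CTCF over 2374 (4 false calls). Of shifts of 2, 3 and 4 it recovered 100%. A change at 1 promoter alone, or with unequal spread between promoters, was not simulated, so these rates do not describe it.

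The ribosomal protein genes, comparison lists, words and tests were chosen with earlier results of these data known. The genes named were, per antibody, up to 12 found in every library with the highest median percentile, up to 10 found in none, up to 8 nearest to detection in 1 of every 2 libraries, any with RAD21 in at least 12 and CTCF in at most 2 libraries, called genes, up to 3 with the smallest p per contrast, up to 4 per comparison list, the stalk proteins, Rpsa and paralogs with an l suffix; other genes were named after their values were seen. Some genes are not reported by name here. Of the comparison lists 22 of 24, 32 of 34, 12 of 12 and 78 of 78 genes matched an autosomal gene.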

Additional observations from a re-analysis of the deposited data

How the results depend on the processing

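The 8 counts of called promoters stayed within 1.5 times of their values under 94 of 98 alternatives. Only the count for RAD21 in Del(CBS1-5) against WT was above 0, so for the others this means that 0 stayed 0. The Fisher counts among them could not register a change at 1 promoter alone. The exceptions were RAD21 in Del(CBS1-5) against WT, 2 calls, which ran from 0 to 11 when single libraries were left out (4 without WT replicate 1, 11 without Del(CBS1-5) replicate 1 and 0 without Del(CBS1-5) replicate 2), and CTCF in Del(CBS1) against WT, 0 calls, which ran from 0 to 3, with 3 (Rplp0 among them) without Del(CBS1) replicate 1. Fewer libraries entered these fits, and the cause was not tested. With the replicate number as a block RAD21 in Del(CBS1-5) gave 3 calls, and the 5 other limma counts stayed at 0. Replicate numbers were not taken to pair the libraries in the main fits. Same-numbered libraries correlated from −0.37 to 0.27 in their deviations from the genotype means. Of the libraries, 5 of 15 RAD21 and 4 of 12 CTCF correlated best with one of their own number. In genotypes with 2 libraries these deviations are mirror images, so their correlations cannot show whether numbers mark pairs. Between WT and Del(CBS1), replicates 1 to 3 correlated with their own number at 0.27, 0.10 and 0.10 for CTCF and 0.27, 0.07 and 0.09 for RAD21. Different numbers gave −0.17 to 0.09 and −0.23 to 0.18, the RAD21 extremes from WT replicate 4. The share of ribosomal protein starts was 22.4% for RAD21 and 32.8% for CTCF, and moved by more than the SD of the WT libraries when fewer peaks counted: to 3.45% and 25% with only peaks of a −log10 q of at least 10, and to 3.45% and 25.9% with every list cut to its strongest peaks at equal length. Over all genes these shares were 6.84% and 16.8%, and 5.70% and 18.4%. Taking either end of the gene span for all 78 genes, an alternative chosen after seeing the data, the CTCF share was 51.9% against 30.5% over all genes and the RAD21 share 31.4% against 25.3%. With this setting the share exceeded that of all genes in 14 of 14 CTCF and 16 of 16 RAD21 libraries. Without the 2 shortest lists, also chosen after seeing the data, the shares were 26.7% and 35.3%. Leaving out single libraries gave 19.0% to 25.9% for RAD21 and 31.0% to 34.5% for CTCF. Because depth is unknown, a start without a peak is one where none was called.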

Other observations

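Genes of the same family that the symbol rule leaves out carried both patterns. Rps3a1, a small subunit protein, had CTCF at its start in 14 of 14 libraries at a median percentile of 99.3. That lay between the medians of Rpl5 (99.8) and Rpl11 (95.7). RAD21 was found at Rps3a1 in 10 of 16 libraries, at 37.6. Rpl7l1, a paralog of Rpl7, had CTCF in 14 of 14 libraries (median percentile 89.5) and RAD21 in 14 of 16 (60.9). Rpl22l1, the paralog of Rpl22, had CTCF in 0 and RAD21 in 5 libraries. Fau, whose product is processed into the small subunit protein eS30, had CTCF in 0 libraries and RAD21 in 1.

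On the X chromosome, Rps4x and Rpl36a had CTCF at the start in 14 of 14 libraries, at median percentiles of 92.0 and 93.3, with RAD21 in 11 and 3 of 16. Rpl39 had CTCF in 6 and RAD21 in 0 libraries, and Rpl10 had CTCF in 3 and RAD21 in 1. Rpl36a is the parent of the autosomal copy Rpl36al, which had CTCF in 1 library and RAD21 in 5.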
